A study of Mus musculus with 11 samples.

Results

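The genes described here are 40 mouse genes of regulated exocytosis and vesicle fusion, matched by name to the annotated gene symbols. The list was made with earlier results of these data known. These genes are 40 of the 49671 genes in the count table. 39 of them were tested, because Rims1 did not pass the filter on low counts, and 20893 genes were tested in all. The cells came from the adrenals of 6 male Nestin-GFP mice of the strain Nes-GFP, all carrying the same reporter, and were sorted by green fluorescence after the cortex had been separated from the medulla. Tissue was pooled in 3 groups of 2 mice, and 180 to 300 cells were sorted into each tube. There were 3 libraries of GFP-negative cortical cells, 3 of GFP-positive cortical cells, 2 of GFP-negative medullary cells and 3 of GFP-positive medullary cells. Cortical libraries 1 and 2 of each gate, both GFP-negative medullary libraries and GFP-positive medullary library 1 came from mice of about 3.5 months. Cortical library 3 of each gate and GFP-positive medullary libraries 2 and 3 came from mice of about 2.5 months. Fluorescence reports activity of the nestin transgene in whichever cell type carries it, so a gate is not a cell type. No reporter-free mouse was analysed here, and no treatments were compared.

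Chromaffin cells of the adrenal medulla store catecholamines in large dense-core vesicles and release them when calcium enters the cell. A vesicle protein of the VAMP family pairs with syntaxin and SNAP-25 on the plasma membrane to form the SNARE complex that fuses the membranes. Synaptotagmins sense calcium, complexins and Munc18 proteins steer the assembly, Rab3 and Rab27 with their effectors bring vesicles to the membrane, and RIM, Munc13 and CAPS proteins dock and prime them. NSF and the SNAP adaptors take the used complexes apart, a step that all membrane traffic needs. Steroid-producing cells of the cortex release their hormones without such vesicles.

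The libraries held between 18500690 and 29204212 counts, and the 40 genes took between 0.0654% and 0.258% of them. Levels are given as CPM, the counts of a gene relative to the library size after trimmed-mean scaling. A count of 3 corresponded to 0.104 to 0.157 CPM, and anything below that is at the limit of detection. Nes, the gene that names the reporter, was at 4.59 to 7.44 CPM in GFP-negative and 35.3 to 50.9 CPM in GFP-positive cortical cells, and at 16.1 to 26.1 CPM in GFP-negative and 69.2 to 178 CPM in GFP-positive medullary cells. A set of 10 chromaffin markers summed to 0.441 to 1.64 CPM in the GFP-negative cortex, 9.84 to 108 CPM in the GFP-positive cortex, 5047 to 7812 CPM in the GFP-negative medulla and 5267 to 9418 CPM in the GFP-positive medulla. Steroidogenic markers summed to 36955 to 74032 CPM over the cortical libraries, and they were also present in the medullary libraries, at 9070 to 42159 CPM. The kit marked no single molecules, and reads copied by PCR are not independent, so limits and intervals from counts cover counting error only. Labels tie no library to a pool or an animal, so gates, and libraries of the same group and age, may share animals. The n of a group is its number of libraries and may exceed its number of pools, and p-values therefore measure the spread between these libraries, part of which may be technical.

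Medullary libraries carried more of this machinery in sum than cortical ones, though not in every role. Summed over the 40 genes, the level was 1021 ± 121 CPM (SD, n = 3) in the GFP-negative cortex, 779 ± 79.3 CPM (SD, n = 3) in the GFP-positive cortex, 1624 ± 312 CPM (SD, n = 2) in the GFP-negative medulla and 2393 ± 256 CPM (SD, n = 3) in the GFP-positive medulla. The cortical and medullary ranges of this sum did not overlap. In the same order of groups, docking and priming genes summed to 152, 29.7, 84.5 and 85.4 CPM. Genes that guide and dismantle SNARE complexes summed to 607, 417, 500 and 434 CPM. Mean sums of the calcium sensors, SNAREs, Rab genes and vesicle proteins were higher in both medullary groups than in either cortical one. The number of genes at 1 CPM or more in every library of a group was 19 in the GFP-negative cortex, 20 in the GFP-positive cortex, 31 in the GFP-negative medulla and 34 in the GFP-positive medulla. Per kilobase of gene length, the order of the leading genes differed between the tissues. Napa, the adaptor alpha-SNAP, stood first in both cortical groups, at 81.6 ± 5.34 and 73.5 ± 9.50 CPM per kilobase (SD, n = 3 each). Cyb561, the cytochrome that passes electrons into chromaffin vesicles, stood first in both medullary groups, at 97.1 ± 32.3 CPM per kilobase (SD, n = 2) in GFP-negative and 135 ± 13.1 CPM per kilobase (SD, n = 3) in GFP-positive cells, although its range overlapped that of Napa in the GFP-negative medulla. Snap25 came after these in both medullary groups, at 24.1 ± 6.52 CPM per kilobase (SD, n = 2) and 51.4 ± 11.8 CPM per kilobase (SD, n = 3), and its range overlapped that of Rab3a in the GFP-negative medulla. In the GFP-negative cortex Rab3a, Nsf and Rims2 came next after Napa, at 35.1, 26.6 and 26.5 CPM per kilobase, and neighbours among these 3 overlapped.

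**Figure D1:**
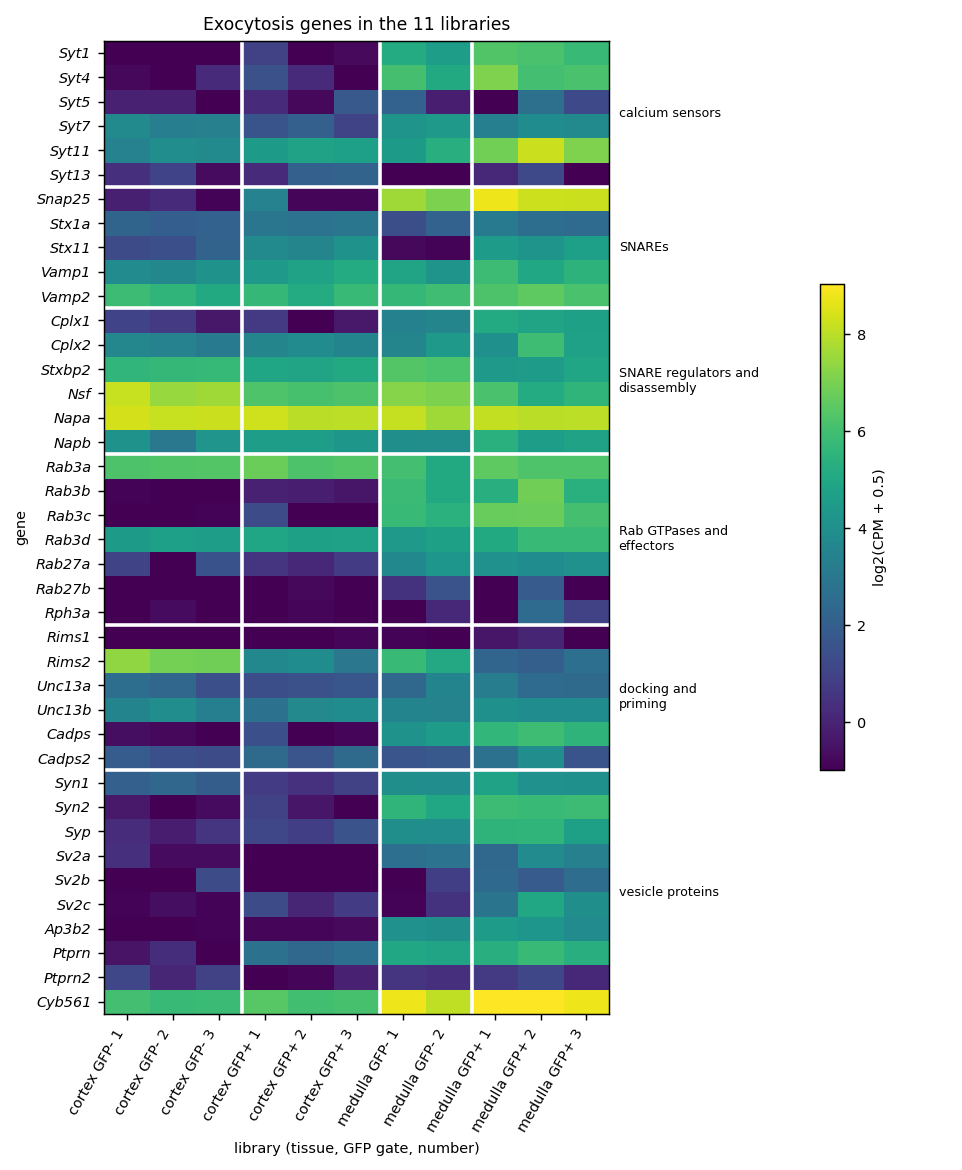
Level of each of the 40 genes (rows, grouped by role) in each of the 11 libraries (columns), as log2 of CPM plus 0.5 on a colour scale. Napa, Nsf and Rab3a are bright in every column, while Snap25, Rab3b, Rab3c, Syn2 and Cadps are bright in the 5 medullary columns and dark in the GFP-negative cortical ones.

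Between tissues, 21 of the 39 tested genes were higher in the medulla than in the cortex among GFP-positive cells, and 1, Rims2, was lower (edgeR quasi-likelihood test, Benjamini-Hochberg adjusted p under 0.05). These 22 make 56.4% of the genes tested here, against 15.5% of all genes tested (9.45% higher and 6.04% lower), and the median log2 difference was 2.76 against 0.03 over all genes. Among GFP-negative cells 17 were higher in the medulla and 2, Stx11 and Rims2, were lower, which is 48.7% against 18.6% of all genes tested (10.6% higher and 8.06% lower), with a median log2 difference of 1.23 against 0.02. All 10 chromaffin markers were also higher in the medulla in both gates, with Dbh, Pnmt and Chgb at 0 in the GFP-negative cortex and Pnmt at 0 in the GFP-positive cortex. In sorted pools, fewer cells of a type and less RNA per cell cannot be told apart. The list was made with earlier results of these data known. Its shares of calls against all genes, here and below, are descriptions only.

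**Figure D2:**
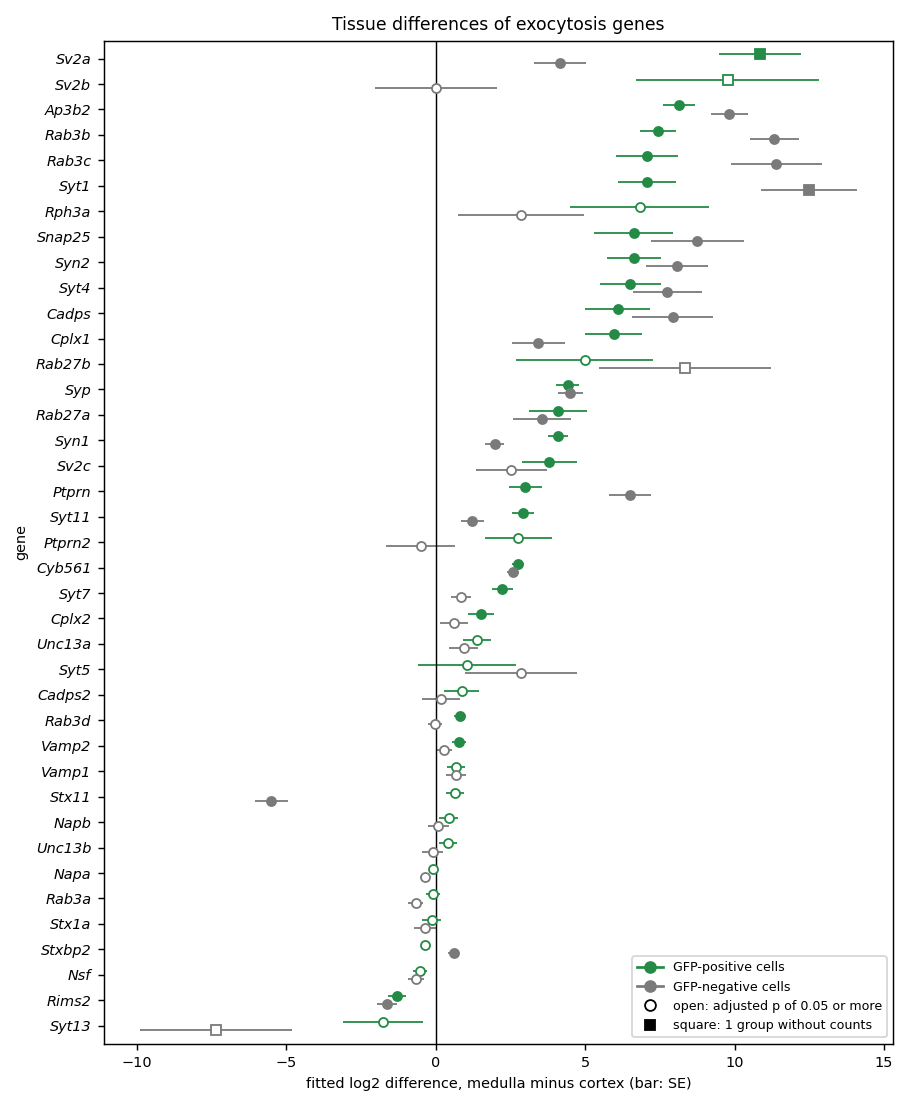
Fitted log2 difference between medulla and cortex for each tested gene (vertical axis), with its standard error as a bar, in GFP-positive (green) and GFP-negative (grey) cells. Filled symbols passed the adjusted p of 0.05, and squares mark genes with no count in 1 of the groups, whose fitted value has no fixed size. Most genes lie right of 0, and Rims2 lies left of it in both gates.

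Gates differed less. In the medulla 5 genes were higher on the GFP-positive side (Syt11, Stx11, Rab3d, Syp and Sv2c) and 3 were lower (Stxbp2, Rims2 and Nsf). These 8 are 20.5% of the 39, close to the 21.4% called among all genes tested (10.2% higher and 11.1% lower), so their number is no result about these genes. In the cortex 5 were higher in GFP-positive cells (Stx11, Rab3b, Syp, Sv2c and Ptprn) and 6 were lower (Syt7, Stxbp2, Rims2, Syn1, Sv2a and Nsf), which is 28.2% against 14.7% of all genes tested (7.14% higher and 7.59% lower). The median log2 difference was 0.76 in the medulla and 0.66 in the cortex, against 0.09 and 0.03 over all genes. Both gates of a tissue share their libraries with the comparisons between tissues. The gate difference itself differed between the tissues for 2 of the 39 genes, Stx11 and Syn1, which is 5.13% against 1.61% of all genes tested (0.756% in the direction of these 2 and 0.857% in the other).

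**Figure D3:**
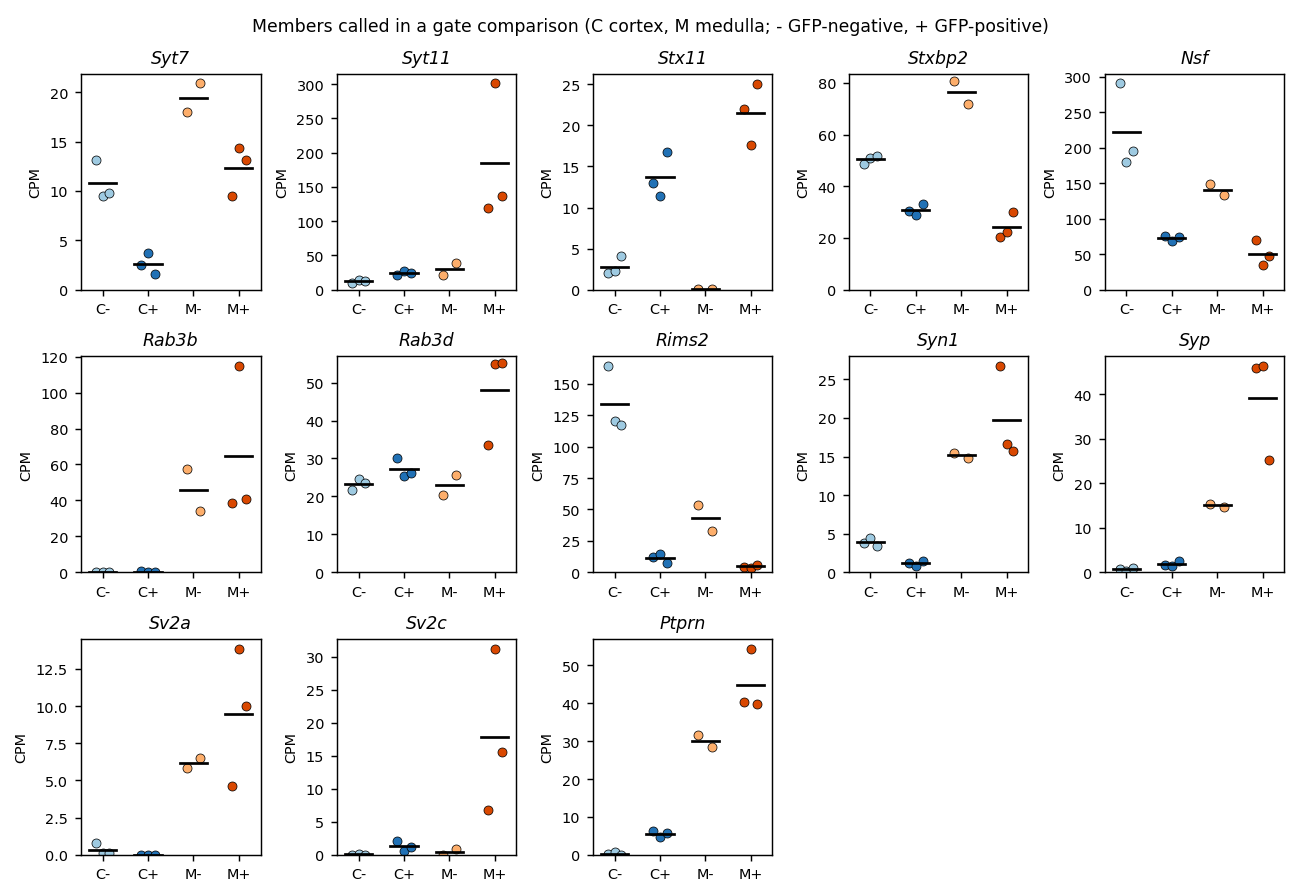
CPM in each library (points) and the group mean (bar) for the 13 genes called in a comparison of gates, with cortical groups in blue and medullary groups in orange and each vertical axis starting at 0. Rims2 and Nsf are lower on the GFP-positive side in both tissues, and Stx11 is higher, from nearly 0 in the GFP-negative medulla.

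The gates also differed in markers of other cell types. Of the 10 chromaffin markers, 4 were higher and none lower in GFP-positive cortical cells, and 1 was higher and none lower in GFP-positive medullary cells. Of 10 Schwann and satellite glia markers, 9 were higher in GFP-positive cells of each tissue, with sums of 2.95 to 10.9 CPM in the GFP-negative and 225 to 317 CPM in the GFP-positive cortex, and of 17.7 to 25.2 CPM and 2100 to 4897 CPM in the medulla, where Sox10 and Foxd3 were at 0 in GFP-negative cells. All 10 macrophage markers were lower in GFP-positive cells of each tissue, with sums of 2280 to 3864 CPM against 49.0 to 202 CPM in the cortex and of 11404 to 13086 CPM against 235 to 586 CPM in the medulla. Among 10 steroidogenic markers 4 were higher and 2 lower in GFP-positive cortical cells, and 6 were higher and 2 lower in GFP-positive medullary cells, where the sums were 9070 to 16798 CPM in GFP-negative and 23756 to 42159 CPM in GFP-positive cells. Pericyte and smooth muscle markers were higher in GFP-positive cells for 5 of 10 in the cortex and 2 of 10 in the medulla. No endothelial marker of 10 was called in either tissue. Fibroblast markers gave 1 higher of 6 tested in the cortex, and 1 higher and 2 lower in the medulla, ganglion neuron markers gave 1 higher of 6 in the cortex and none in the medulla, and platelet and mast cell markers gave 2 lower of 4 in the cortex and 1 lower in the medulla. The part of these cell types in the gate differences below was not tested, except where a value is given.

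Age was partly tied to gate in the medulla, since the 2 GFP-negative libraries there were both from older mice. Within the 3.5-month libraries alone, all 8 genes called in the medulla kept their direction (1 GFP-positive against 2 GFP-negative libraries). All 11 called in the cortex kept theirs at 3.5 months (2 against 2) and at 2.5 months (1 against 1). For each of these genes the libraries of the 2 gates did not overlap, so no subset of libraries could have changed the direction. The kept directions therefore say nothing of an effect of age. No 2.5-month value exists for the medullary gate or for the difference between tissues in GFP-negative cells. With age as a covariate, 7 calls given below missed the threshold: the medullary gate for Syp, the cortical gate for Sv2a, the tissues among GFP-positive cells for Vamp2, Cplx2, Rab3d and Sv2c, and the difference between gate effects for Syn1 (adjusted p 0.0506 to 0.116).

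Among the calcium sensors, Syt11 was the only one called in the medullary gate. Syt1 was also higher in every GFP-positive than in any GFP-negative medullary library, but its test did not pass. Syt11, a synaptotagmin that does not bind calcium as the classical sensors do, was at 21.6 and 38.6 CPM in the GFP-negative medulla and at 119, 301 and 137 CPM in the GFP-positive medulla. In the cortex it was at 10.4, 14.7 and 13.3 CPM in GFP-negative and 21.6, 26.8 and 24.9 CPM in GFP-positive cells. The 3 GFP-positive medullary libraries were the highest of all, and library 2 stood well above the others. The gate difference was a log2 value of 2.63 (SE 0.424, adjusted p = 0.00185) in the medulla. In the cortex it was a log2 value of 0.93 (SE 0.350, adjusted p = 0.103), where the groups did not overlap but the test did not pass. GFP-positive medullary cells were above GFP-positive cortical cells by a log2 value of 2.93 (SE 0.367, adjusted p = 0.000873). The GFP-negative groups differed by a log2 value of 1.23 (SE 0.381, adjusted p = 0.0477), which did not pass without GFP-negative medullary library 2, GFP-positive cortical library 3 or any 1 GFP-negative cortical library (adjusted p 0.0621 to 0.364), in limma voom (0.157) or when scaled by total counts alone (0.0592).

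Syt7, the high-affinity calcium sensor of chromaffin vesicles, fell with the cortical gate. It was at 13.2, 9.44 and 9.77 CPM in GFP-negative and 2.54, 3.69 and 1.58 CPM in GFP-positive cortical cells, and at 18.0 and 20.9 CPM and 9.45, 14.3 and 13.1 CPM in the corresponding medullary cells. The cortical groups were fully separated and differed by a log2 value of -2.05 (SE 0.334, adjusted p = 0.00298). GFP-positive cells were below GFP-negative ones in the medulla as well, but the test did not pass (log2 difference -0.66, SE 0.349, adjusted p = 0.212). GFP-positive medullary cells were above GFP-positive cortical cells (log2 difference 2.24, SE 0.336, adjusted p = 0.00216).

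Syt1 and Syt4 marked the medulla. Syt1, the fast calcium sensor of chromaffin cells and neurons, had no count in the GFP-negative cortex and was at 1.43, 0 and 0.0901 CPM in the GFP-positive cortex, against 35.5 and 24.0 CPM in GFP-negative and 80.0, 69.9 and 55.1 CPM in GFP-positive medullary cells. Its level in GFP-negative cells was at least 795-fold higher in the medulla than in the cortex, taking 3 counts over the group as the cortical limit, and the test passed (adjusted p = 0.00237). In GFP-positive cells the difference was a log2 value of 7.07 (SE 0.977, adjusted p = 0.00273). Syt4, a vesicle synaptotagmin of neuroendocrine cells, had 50.3 ± 23.1 CPM (SD, n = 2) in GFP-negative and 90.5 ± 38.3 CPM (SD, n = 3) in GFP-positive medullary cells and at most 2.27 CPM in a cortical library. Its tissue difference was a log2 value of 6.51 (SE 1.02, adjusted p = 0.00257) in GFP-positive and a log2 value of 7.75 (SE 1.16, adjusted p = 0.00245) in GFP-negative cells. Syt5 and Syt13 stayed at or below 5.95 CPM in every library and passed no test, and Syt13 had no count in the GFP-negative medulla.

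Of the SNARE proteins themselves, Snap25 was high in the medulla and below 1 CPM in all but 1 cortical library. Snap25, the plasma membrane SNARE cleaved by botulinum toxins, was at 442, 306 and 299 CPM in GFP-positive and 195 and 132 CPM in GFP-negative medullary cells. In the cortex it was at 0.411, 0.661 and 0.0394 CPM in GFP-negative and 10.5, 0.0430 and 0.0450 CPM in GFP-positive cells, so 1 cortical library alone stood above 1 CPM. The medulla was higher by a log2 value of 6.63 (SE 1.31, adjusted p = 0.00842) in GFP-positive cells and by a log2 value of 8.75 (SE 1.56, adjusted p = 0.00510) in GFP-negative cells. The medullary gate difference did not pass (log2 difference 1.09, SE 1.17, adjusted p = 0.564), although the groups did not overlap.

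Stx11 had the larger of the 2 gate effects that differed between the tissues. Stx11 is a syntaxin without a membrane-spanning segment, best known for granule release by cytotoxic lymphocytes, where its partner is the Munc18 protein encoded by Stxbp2. It lay at 2.05, 2.24 and 4.13 CPM in GFP-negative and 13.0, 11.4 and 16.8 CPM in GFP-positive cortical cells. In the medulla it lay at 0.0731 and 0.0406 CPM in GFP-negative cells, which is 3 counts in all, and at 22.0, 17.6 and 25.1 CPM in GFP-positive cells. GFP-positive cells were above GFP-negative ones in both tissues with no overlap, and the GFP-negative medulla was the lowest group.

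The medullary ratio was 364, with a counting interval of 124 to 1766 (exact, 95%), and the cortical log2 difference was 2.29, SE 0.328, adjusted p = 0.00153. The adjusted p of the medullary difference was 3.15e-05. The gate difference was larger in the medulla by a log2 value of 6.14 (SE 0.635, adjusted p = 0.00776). Among GFP-positive cells the tissues did not differ by the test (log2 difference 0.65, SE 0.310, adjusted p = 0.198), and among GFP-negative cells the medulla was lower (adjusted p = 0.000476). In the 2 libraries where Stx11 was nearly absent the macrophage marker sum was the highest of all, at 11404 and 13086 CPM. The sum of platelet and mast cell markers was also highest there, at 311 and 459 CPM. The part of any cell type in the levels of Stx11 was not tested.

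The upstream sequence of Stx11 is shown because both gate differences of Stx11, and the difference between them, passed under every alternative that was run. Stx11 (ENSMUSG00000039232) lies on the minus strand of chromosome 10 in GRCm38, from 12939983 to 12964259, and the 250 bases before its RefSeq start are chr10:12964260-12964509, written along the gene. Capitals mark CAGCACC, one part of the element bound by the neuronal repressor REST, which begins 7 bases before the start.
Stx11: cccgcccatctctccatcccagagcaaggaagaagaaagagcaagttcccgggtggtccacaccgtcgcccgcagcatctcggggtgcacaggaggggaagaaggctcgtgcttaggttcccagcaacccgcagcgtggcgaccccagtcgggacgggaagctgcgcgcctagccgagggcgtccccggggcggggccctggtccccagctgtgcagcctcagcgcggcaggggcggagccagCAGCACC

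Promoter windows of 250 bases upstream were available in RefSeq (GRCm38.p6) for 31 of the 40 genes, as 41 windows. Each was searched on both strands for 4 motifs. TGACGTCA, the cyclic AMP response element, was in 1 of the 41 windows and in 1.55% of all 32851 promoters. GGACAGC and CAGCACC, from the 2 parts of the REST element, were in 1 and 6 of them, against 5.28% and 5.73% of all promoters, and in Rph3a a match of each shared bases with the other. CACGTG, the E-box, was in 7 of them, against 6.02% of all. These are matches of letters in a window and say nothing of binding.

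Vamp2 and Vamp1, the vesicle SNAREs, and Stx1a, the neuronal plasma membrane syntaxin, were present in all 11 libraries. Vamp2 was between 33.6 and 92.6 CPM, Vamp1 between 12.4 and 58.6 CPM and Stx1a between 2.19 and 8.36 CPM. Vamp2 was higher in the GFP-positive medulla than in the GFP-positive cortex (log2 difference 0.78, SE 0.228, adjusted p = 0.0447). Leaving out any 1 library other than GFP-negative cortical libraries 1 and 3 ended that call (adjusted p 0.0538 to 0.139), as did age as a covariate (0.0728) and a replicate block (0.0776). No other test of these 3 genes passed. The gate difference of Vamp1 was a log2 value of 0.95 (SE 0.301, adjusted p = 0.0600) in the cortex and a log2 value of 0.95 (SE 0.342, adjusted p = 0.0748) in the medulla.

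Among the proteins that guide and dismantle SNARE complexes, Napa passed no test and Nsf and Stxbp2 fell with the gate. Napa was at 332, 294 and 301 CPM and 319, 252 and 263 CPM in GFP-negative and GFP-positive cortical cells, and at 288 and 195 CPM and 275, 253 and 265 CPM in the medullary ones. The 2 gates overlapped in each tissue. The gate differences of Napa were 0.13 in the medulla (SE 0.173) and -0.15 in the cortex (SE 0.154) on the log2 scale.

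Nsf, the ATPase that works with alpha-SNAP, fell with the gate in both tissues. Its level was 291, 180 and 196 CPM in the GFP-negative cortex and 76.2, 68.7 and 74.2 CPM in the GFP-positive cortex. In the medulla it was 149 and 133 CPM and 70.5, 35.3 and 46.9 CPM. Every GFP-positive library was below every GFP-negative one. The log2 difference was -1.61 (SE 0.254, adjusted p = 0.00258) in the cortex and -1.47 (SE 0.275, adjusted p = 0.00403) in the medulla, and the difference between the tissues did not pass (adjusted p = 0.922).

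The window before Nsf is shown for comparison with Stx11, since it belongs to a gene that went the other way in both tissues. Nsf (ENSMUSG00000034187) lies on the minus strand of chromosome 11, from 103821782 to 103954056, and the window is chr11:103954057-103954306 in GRCm38.p6. Capitals mark its E-box, 174 bases before the RefSeq start.
Nsf: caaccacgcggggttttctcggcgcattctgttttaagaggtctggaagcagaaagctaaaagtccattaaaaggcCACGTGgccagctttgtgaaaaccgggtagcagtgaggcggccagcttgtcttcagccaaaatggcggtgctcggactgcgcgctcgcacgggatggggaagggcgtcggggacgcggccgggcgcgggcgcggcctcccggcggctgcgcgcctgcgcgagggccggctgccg

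Stxbp2, the Munc18 protein that binds Stx11 outside neurons, also fell with both gates. It was at 48.6, 50.8 and 51.7 CPM in GFP-negative and 30.3, 28.7 and 33.3 CPM in GFP-positive cortical cells. Medullary levels were 80.6 and 72.0 CPM and 20.5, 22.3 and 29.9 CPM. The groups did not overlap in either tissue, and the difference was a log2 value of -1.65 (SE 0.175, adjusted p = 0.000186) in the medulla and a log2 value of -0.71 (SE 0.159, adjusted p = 0.0145) in the cortex. Without GFP-positive cortical library 2 the cortical value had an adjusted p of 0.0562. GFP-negative medullary cells were above GFP-negative cortical cells (log2 difference 0.60, SE 0.174, adjusted p = 0.0387), a call lost without any 1 of these 5 libraries (adjusted p 0.0794 to 0.154), with no low-count filter (0.0829) and when scaled by total counts alone (0.0809). Stx11 and Stxbp2 thus changed in opposite directions with the gate in both tissues.

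Complexins, the small proteins that clamp partly assembled SNARE complexes, separated the tissues. Cplx1 was at 1.53, 1.14 and 0.276 CPM and 1.11, 0 and 0.315 CPM in GFP-negative and GFP-positive cortical cells, against 10.0 and 11.4 CPM and 35.0, 28.5 and 25.5 CPM in the medulla. The tissue difference was a log2 value of 5.95 (SE 0.947, adjusted p = 0.00285) in GFP-positive cells and a log2 value of 3.44 (SE 0.874, adjusted p = 0.0225) in GFP-negative cells. The latter was lost without GFP-negative cortical library 2 or 3 or GFP-negative medullary library 2 (adjusted p 0.0586 to 0.0880). Cplx2 passed between tissues in GFP-positive cells (log2 difference 1.51, SE 0.433, adjusted p = 0.0409) and missed in GFP-negative cells (log2 difference 0.61, SE 0.471, adjusted p = 0.408). The former was lost without GFP-positive medullary library 2 or any 1 cortical library (adjusted p 0.0557 to 0.151), with age as a covariate (0.116), in limma voom (0.0665) and in a fit of the 2 groups alone (0.0649). Napb, the neuronal beta-SNAP, was between 7.60 and 41.3 CPM and passed no test.

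Rab3a, which tethers secretory vesicles, passed no test, while each of its relatives passed at least 1. Rab3a was at 75.5, 78.2 and 80.8 CPM and 110, 74.5 and 80.7 CPM in the GFP-negative and GFP-positive cortex, and at 64.6 and 33.6 CPM and 93.4, 77.7 and 77.6 CPM in the medulla. The groups overlapped in the GFP-positive cells of both tissues, where the difference was -0.09 (SE 0.230) on the log2 scale.

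Rab3b and Rab3c came almost wholly from the medulla. Rab3b was at 57.4 and 34.0 CPM in GFP-negative and 38.5, 115 and 41.0 CPM in GFP-positive medullary cells. In the cortex it had 1 count in the GFP-negative libraries together and 0.445, 0.387 and 0.270 CPM in the GFP-positive ones. Its cortical gate difference passed (ratio 29.2, exact 95% counting interval 4.78 to 1200, adjusted p = 0.0291), but not without GFP-positive cortical library 1 or 2 or any 1 GFP-negative cortical library (adjusted p 0.0597 to 0.0936) or in limma voom (0.395). In GFP-negative cells the ratio of medulla to cortex was 3681 for Rab3b (exact 95% counting interval 660.0 to 145447) and 3823 for Rab3c (686 to 151058), each against 1 count in the cortex. In GFP-positive cells the log2 differences were 7.44 (SE 0.590) for Rab3b and 7.07 (SE 1.02) for Rab3c.

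Rab3d, found on granules of many secretory cells outside the nervous system, was the only Rab3 gene called in the medullary gate. Rab3a and Rab3c were also higher in every GFP-positive than in any GFP-negative medullary library, but their tests did not pass. Rab3c was at 53.5 and 42.1 CPM in GFP-negative and 103, 107 and 66.3 CPM in GFP-positive medullary cells. Rab3d was at 20.3 and 25.7 CPM in GFP-negative and 33.5, 55.0 and 55.2 CPM in GFP-positive medullary cells, and at 21.8, 24.7 and 23.6 CPM and 30.2, 25.3 and 26.1 CPM in the cortex. The medullary groups did not overlap (log2 difference 1.06, SE 0.239, adjusted p = 0.0106), but without GFP-negative library 1 the adjusted p was 0.0822, and in a fit of the 2 groups alone 0.0727. GFP-positive medullary cells were also above GFP-positive cortical cells (log2 difference 0.82, SE 0.208, adjusted p = 0.0248), a call lost without GFP-positive medullary library 2 or 3 or any 1 GFP-positive cortical library (adjusted p 0.0518 to 0.0844) and with age as a covariate (0.0636).

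Rab27a, which recruits granules to actin and the membrane, was higher in the medulla in both gates. Its mean was 1.31 ± 1.20 CPM in GFP-negative and 0.903 ± 0.286 CPM in GFP-positive cortical cells, against 15.4 ± 4.56 CPM and 15.6 ± 1.22 CPM in medullary cells (SD, n = 3, 3, 2 and 3). The difference was a log2 value of 4.10 (SE 0.971, adjusted p = 0.0185) in GFP-positive cells and a log2 value of 3.56 (SE 0.981, adjusted p = 0.0315) in GFP-negative cells. The former had an adjusted p of 0.0514 to 0.0618 without any 1 of the GFP-positive cortical libraries, and the latter 0.0799 and 0.138 without GFP-negative cortical library 1 or GFP-negative medullary library 2 and 0.0771 in a fit of the 2 groups alone. Rab27b and the Rab3 effector gene Rph3a stayed at or below 5.25 CPM and passed no test.

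Rims2 was lower in the medulla and lower in GFP-positive cells. Rims2 encodes an active zone scaffold that binds Rab3 and calcium channels, and lies on the plus strand of chromosome 15 in GRCm38, from 39198332 to 39681940. It was at 164, 121 and 117 CPM in the GFP-negative cortex and 12.2, 14.4 and 7.30 CPM in the GFP-positive cortex. In the medulla it was at 53.2 and 33.2 CPM in GFP-negative and 4.34, 3.65 and 5.80 CPM in GFP-positive cells. GFP-negative cortical libraries were the highest and GFP-positive medullary libraries the lowest, and no 2 groups overlapped.

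Rims2 fell with the gate in both tissues by a log2 value of -3.56 (SE 0.312, adjusted p = 0.000163) in the cortex and a log2 value of -3.24 (SE 0.329, adjusted p = 0.000152) in the medulla, and was lower in the medulla than in the cortex in both gates. The tissue difference was a log2 value of -1.31 (SE 0.300, adjusted p = 0.0164) in GFP-positive cells and a log2 value of -1.63 (SE 0.332, adjusted p = 0.00908) in GFP-negative cells. In GFP-positive cells its adjusted p was 0.0517 and 0.0640 without GFP-positive medullary library 1 or 2, 0.0861 in limma voom and 0.0503 in a fit of the 2 groups alone. It was 0.0865 in GFP-negative cells without GFP-negative medullary library 2.

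Cyp11b2, the aldosterone synthase of the outer cortex, kept a similar ratio to Rims2 in 3 of the 4 groups. It belongs to the 10 steroidogenic markers, of which 4 were higher and 2 lower in GFP-positive cortical cells. Mean Star was 6112 CPM in the GFP-negative and 19562.5 CPM in the GFP-positive cortex. Mean Cyp11b1 was 1405 and 5493 CPM there, so Cyp11b2 does not stand for the whole list. Cyp11b2 was at 1395, 958 and 1197 CPM in the GFP-negative cortex, 103, 62.5 and 65.7 CPM in the GFP-positive cortex, 568 and 399 CPM in the GFP-negative medulla and 0.361, 2.89 and 0.627 CPM in the GFP-positive medulla. Per 100 CPM of Cyp11b2, Rims2 stood at 9.76 to 12.6 CPM in the GFP-negative cortex, 11.1 to 23.1 CPM in the GFP-positive cortex and 8.33 to 9.37 CPM in the GFP-negative medulla. The GFP-positive medulla departed from this, at 127 to 1200 CPM of Rims2 per 100 CPM of Cyp11b2, since Cyp11b2 was below 3 CPM there. For Nsf the same quantity ran from 16.3 to 20.9 CPM in the GFP-negative cortex to 74.2 to 113 CPM in the GFP-positive cortex, so Nsf fell less than Cyp11b2 did. For Syt7 this quantity was 0.816 to 0.985 CPM in the GFP-negative cortex and 2.40 to 5.91 CPM in the GFP-positive cortex. Syt7 thus also fell less than Cyp11b2 did. The part of Cyp11b2-expressing cells in these differences was not tested.

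The other docking and priming genes were low or medullary. Cadps, the CAPS protein that primes dense-core vesicles, was at 0.149, 0.0734 and 0 CPM and 2.23, 0 and 0.0450 CPM in the GFP-negative and GFP-positive cortex, against 16.8 and 22.6 CPM and 49.6, 59.5 and 46.0 CPM in the medulla. The medulla was higher by a log2 value of 6.09 (SE 1.09, adjusted p = 0.00506) in GFP-positive cells and by a log2 value of 7.93 (SE 1.35, adjusted p = 0.00419) in GFP-negative cells. Its relative Cadps2 and the Munc13 genes Unc13a and Unc13b ranged from 1.97 to 15.8 CPM over all libraries and passed no test. Rims1 never exceeded 0.522 CPM.

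Of 10 genes for vesicle proteins, 8 were higher in the medulla in GFP-positive and 7 in GFP-negative cells, against 9.45% and 10.6% of all genes tested, and the classes of genes were not tested against each other. Cyb561, the most abundant of them, was at 64.7, 55.8 and 56.9 CPM and 86.6, 62.8 and 68.9 CPM in the GFP-negative and GFP-positive cortex. It reached 438 and 271 CPM in the GFP-negative and 525, 517 and 439 CPM in the GFP-positive medulla. Cyb561 was thus present in every cortical library and higher in the medulla in both gates, by a log2 value of 2.76 (SE 0.200, adjusted p = 0.000174) in GFP-positive and a log2 value of 2.58 (SE 0.210, adjusted p = 0.000188) in GFP-negative cells. Counts here carry no strand, and 10.3% of the Cyb561 length is shared with exons of Gm9910 on the other strand.

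Ptprn, the receptor-like phosphatase IA-2 of dense-core vesicle membranes, rose with the cortical gate. Ptprn was at 0.224, 0.734 and 0 CPM in GFP-negative and 6.32, 4.64 and 5.81 CPM in GFP-positive cortical cells, with no overlap and a difference of a log2 value of 4.09 (SE 0.649, adjusted p = 0.00259). It was at 31.7 and 28.4 CPM and 40.3, 54.4 and 39.7 CPM in the medulla, where the gate difference did not pass (log2 difference 0.58, SE 0.571, adjusted p = 0.529). The difference between the 2 gate effects did not pass either (adjusted p = 0.0720). Between tissues Ptprn was higher in the medulla by a log2 value of 3.00 (SE 0.548, adjusted p = 0.00559) in GFP-positive and a log2 value of 6.51 (SE 0.703, adjusted p = 0.000631) in GFP-negative cells. Exons of Gm28294 on the other strand share 4.45% of its length. Ptprn2, the related phogrin gene, never exceeded 1.70 CPM and passed no test.

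Syn1 and Syn2 encode synapsins, which hold reserve vesicles together. Syn1 was at 3.77, 4.41 and 3.43 CPM in GFP-negative and 1.16, 0.859 and 1.44 CPM in GFP-positive cortical cells, and at 15.5 and 14.8 CPM and 26.7, 16.6 and 15.7 CPM in medullary cells. It fell with the gate in the cortex (log2 difference -1.74, SE 0.304, adjusted p = 0.00415) and not in the medulla (log2 difference 0.37, SE 0.317, adjusted p = 0.454), where GFP-positive libraries were slightly above GFP-negative ones. Between tissues Syn1 was higher in the medulla by a log2 value of 4.09 (SE 0.326, adjusted p = 0.000196) in GFP-positive and a log2 value of 1.97 (SE 0.314, adjusted p = 0.00316) in GFP-negative cells. The gate difference differed between the tissues by a log2 value of 2.12 (SE 0.443, adjusted p = 0.0467). Leaving out any 1 of the 11 libraries ended that call, with adjusted p from 0.0572 to 0.157, as did age as a covariate (0.0791), a replicate block (0.0837), limma voom (0.0875) and no low-count filter (0.0558).

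The part upstream of Syn1 is shown as that of the other gene whose gate difference differed between tissues. Syn1 (ENSMUSG00000037217) lies on the minus strand of chromosome X, from 20860511 to 20921004, and chrX:20921005-20921168 (GRCm38.p6) is the part of its RefSeq window outside the annotated gene. Capitals mark CAGCACC at -230 and -176 and TGACGTCA at -159, counted from the RefSeq start.
Syn1: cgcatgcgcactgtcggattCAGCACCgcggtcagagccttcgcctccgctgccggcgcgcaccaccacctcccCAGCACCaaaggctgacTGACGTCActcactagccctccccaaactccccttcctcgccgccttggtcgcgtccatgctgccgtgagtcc

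Syn2 was at 0.139 ± 0.150 CPM in GFP-negative and 0.576 ± 0.785 CPM in GFP-positive cortical cells, against 38.7 ± 11.1 CPM and 57.3 ± 1.58 CPM in the medulla (SD, n = 3, 3, 2 and 3). It differed between the tissues by a log2 value of 6.63 (SE 0.899, adjusted p = 0.00132) in GFP-positive cells and by a log2 value of 8.07 (SE 1.04, adjusted p = 0.00122) in GFP-negative cells. Ap3b2, the neuronal AP-3 adaptor subunit that sorts vesicle cargo, was at 13.9 to 22.0 CPM in the medulla and at or below 0.0901 CPM in every cortical library. Its ratio in GFP-negative cells was 1274 (exact 95% counting interval 228 to 50372, against 1 cortical count), and its log2 difference in GFP-positive cells was 8.15 (SE 0.533, adjusted p = 0.000137).

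Syp, synaptophysin of small clear vesicles, rose with the gate in both tissues. It was at 0.709, 0.367 and 0.906 CPM in GFP-negative and 1.69, 1.33 and 2.48 CPM in GFP-positive cortical cells, and at 15.3 and 14.7 CPM and 45.9, 46.3 and 25.3 CPM in medullary cells. The groups of a tissue did not overlap and differed by a log2 value of 1.38 (SE 0.395, adjusted p = 0.0315) in the medulla and a log2 value of 1.47 (SE 0.391, adjusted p = 0.0313) in the cortex. Both calls lay near the threshold, and leaving out any 1 of several libraries ended them. The medullary one was lost without GFP-positive medullary library 1 or 2, GFP-negative medullary library 1 or 2 or GFP-negative cortical library 1 (adjusted p 0.0524 to 0.142), and with age as a covariate (0.0849) or a replicate block (0.0622). The cortical one was lost without GFP-positive cortical library 1 or 3 or GFP-negative cortical library 1 or 2 (adjusted p 0.0564 to 0.0992), in limma voom (0.224), in a fit of the 2 groups alone (0.109) and with a replicate block (0.0549). Exons of Gm14703 on the other strand share 16.8% of the Syp length. The tissue difference of Syp was a log2 value of 4.41 (SE 0.395, adjusted p = 0.000196) in GFP-positive cells and a log2 value of 4.50 (SE 0.424, adjusted p = 0.00036) in GFP-negative cells, and was called without any 1 library.

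The SV2 genes encode vesicle glycoproteins that also bind botulinum toxins. Sv2a was at 0.784, 0.110 and 0.118 CPM in the GFP-negative cortex and had no count in the GFP-positive cortex, which makes it at least 7.69-fold lower there (3 counts over the group as the limit, adjusted p = 0.0306). That call was lost without any 1 GFP-positive cortical library (adjusted p 0.0656 to 0.0725), with age as a covariate (0.0506) and in limma voom (0.170), and 2 of the 3 GFP-negative libraries held 3 counts each. In the medulla Sv2a was at 5.81 and 6.50 CPM in GFP-negative and 4.65, 13.8 and 9.97 CPM in GFP-positive cells, which overlapped, and the gate difference did not pass. The GFP-positive medulla was at least 228-fold above the GFP-positive cortex (adjusted p = 0.00183). Among GFP-negative cells the medulla was higher by a log2 value of 4.17 (SE 0.872, adjusted p = 0.0143), with an adjusted p of 0.0618 without GFP-negative medullary library 2. Sv2b was at or below 5.43 CPM and passed no test.

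Sv2c rose with the gate in both tissues. It was at 0.0373, 0.147 and 0.0394 CPM in GFP-negative and 2.05, 0.558 and 1.22 CPM in GFP-positive cortical cells, and at 0.0365 and 0.894 CPM and 6.81, 31.2 and 15.6 CPM in medullary cells. GFP-positive libraries were above GFP-negative ones in each tissue, by a log2 value of 5.27 (SE 1.19, adjusted p = 0.0108) in the medulla and a log2 value of 3.99 (SE 1.08, adjusted p = 0.0343) in the cortex. The cortical call was lost without GFP-positive library 1 or 3 or any 1 GFP-negative cortical library (adjusted p 0.0607 to 0.113) and in limma voom (0.201), while the medullary call was kept without any 1 library. Between tissues Sv2c differed in GFP-positive cells by a log2 value of 3.81 (SE 0.917, adjusted p = 0.0198), a call lost without GFP-positive cortical library 2 or 3 or GFP-positive medullary library 2 (adjusted p 0.0627 to 0.0797), with age as a covariate (0.0630) and with a replicate block (0.0502).

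The window before Sv2c is shown as another that holds CAGCACC. The same letters were in the windows of Stxbp2, lower in GFP-positive cells of both tissues, of Syn1, lower in those of the cortex, and of Napa and Rph3a, which passed no test. The Syp window, of a gene higher in GFP-positive cells of both tissues, held none. Sv2c (ENSMUSG00000051111) lies on the minus strand of chromosome 13, from 95954594 to 96132577, and the window is chr13:96132578-96132827 in GRCm38.p6. Capitals mark the match, 101 bases before the RefSeq start.
Sv2c: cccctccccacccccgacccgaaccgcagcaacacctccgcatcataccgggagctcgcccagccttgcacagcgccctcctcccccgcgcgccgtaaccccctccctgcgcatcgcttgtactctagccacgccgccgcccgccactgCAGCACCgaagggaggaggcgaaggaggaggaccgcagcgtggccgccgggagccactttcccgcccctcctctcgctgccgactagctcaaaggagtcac

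Within some gene families the mean share of each member differed between the tissues. Shares are of CPM per kilobase, averaged over the libraries of a group. Rab3a made 86.3 ± 0.573% of the Rab3 family in the GFP-negative cortex and 85.5 ± 1.13% in the GFP-positive cortex (SD, n = 3 each), against 46.8 ± 6.57% (SD, n = 2) and 48.9 ± 10.3% (SD, n = 3) in the medulla, where Rab3b made 27.9% and 22.4% and Rab3c 12.5% and 13.9%. Syn1 made 98.3 ± 1.80% and 83.4 ± 19.0% of the synapsins in the GFP-negative and GFP-positive cortex and 46.1 ± 6.37% and 41.6 ± 6.99% in the medulla (SD, n = 3, 3, 2 and 3). Cadps made 4.22 ± 3.76% and 14.8 ± 24.4% of the CAPS genes in the cortex and 92.3 ± 0.885% and 92.6 ± 4.74% in the medulla (SD, n = 3, 3, 2 and 3). The Cadps share in the GFP-positive cortex ranged from 0% to 42.9% over its 3 libraries, and library 1 held nearly all Cadps counts there.

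Cplx1 made 16.2 ± 8.29% and 8.05 ± 9.24% of the complexins in the cortex and 61.2 ± 7.49% and 67.7 ± 15.8% in the medulla (SD, n = 3, 3, 2 and 3). Among the 6 synaptotagmins of the list, Syt11 had 55.7 ± 8.24% and 70.7 ± 5.21% in the GFP-negative and GFP-positive cortex. It had 23.7 ± 13.8% and 49.3 ± 16.1% in the medulla (SD, n = 3, 3, 2 and 3). Syt7 had 35.3 ± 7.86% in the GFP-negative cortex and 5.72 ± 2.39% in the GFP-positive cortex (SD, n = 3 each). Syt4 had 48.3 ± 12.9% (SD, n = 2) in the GFP-negative and 34.4 ± 15.6% (SD, n = 3) in the GFP-positive medulla, and the spread of the latter covers the difference. Vamp2 kept 81.4% to 89.0% of the VAMP pair in all 4 groups. Rims2 made 95.6% to 100% of the RIM pair in all 4, Rab27a made 96.4% to 98.4% of the Rab27 pair in the 3 groups with a share, and Unc13a made 29.7% to 54.2% of the Munc13 pair, with overlap between the tissues. These shares are descriptions and were not tested.

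**Figure D4:**
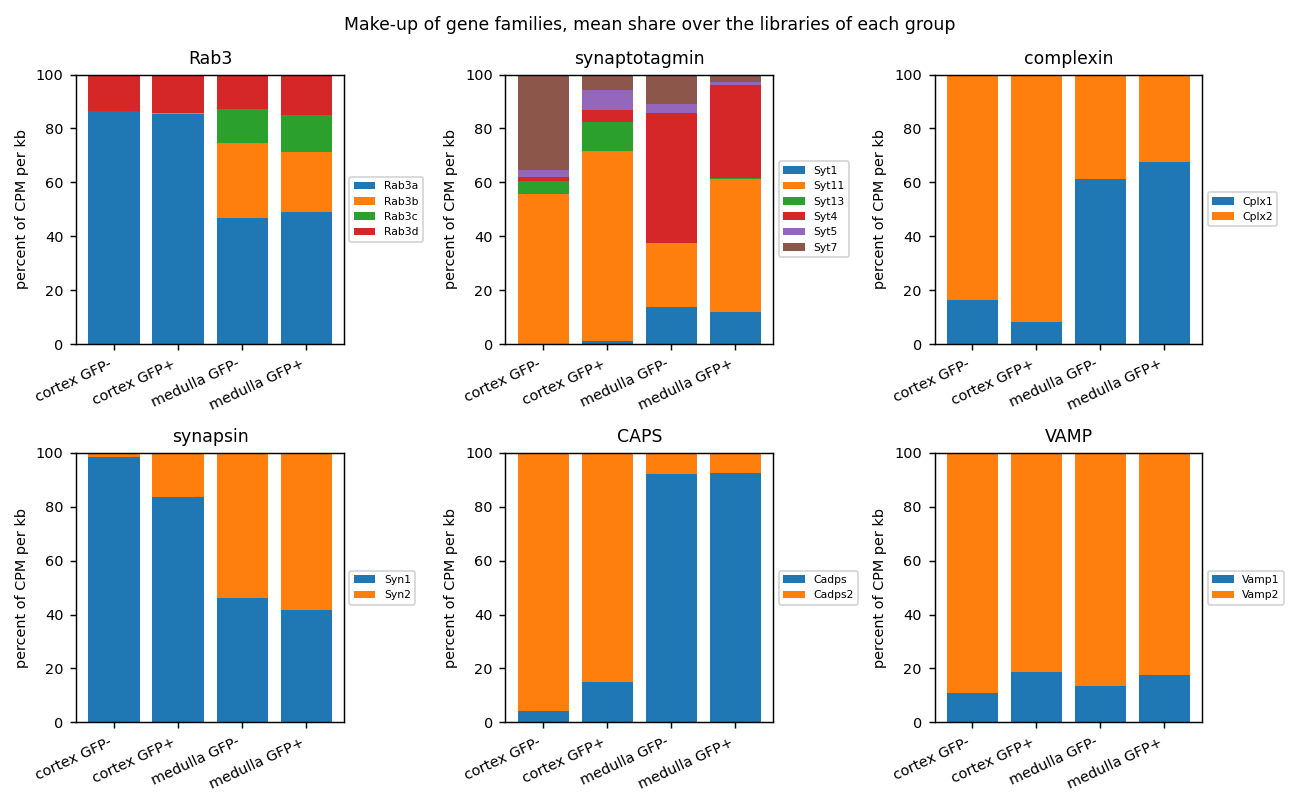
Mean share of each gene in its family's CPM per kilobase (vertical axis, percent) in the 4 groups (bars), for the Rab3, synaptotagmin, complexin, synapsin, CAPS and VAMP families. Cortical bars are mostly Rab3a, Cplx2, Syn1 and Cadps2, medullary bars hold large shares of Rab3b, Cplx1, Syn2 and Cadps, and the VAMP bars look alike.

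One GFP-positive cortical library stood apart. Library 1 had a chromaffin marker sum of 108 CPM, against 9.84 and 10.5 CPM in libraries 2 and 3, with Pnmt at 0 in all of them. Of the CPM summed over these 3 libraries, library 1 held 100% for Rab3c, 99.2% for Snap25, 98.0% for Cadps, 94.1% for Syt1, 85.1% for Syn2, 77.9% for Cplx1 and 76.8% for Syt4. It held 24.2% for Vamp1, 29.4% for Syt11, 30.8% for Syp, 31.7% for Stx11 and 37.7% for Ptprn, which were spread over all 3 libraries. Per 100 CPM of chromaffin markers, library 1 held 9.76 CPM of Snap25 and 1.90 CPM of Rab3c, and GFP-positive medullary libraries held 4.07 to 5.68 CPM and 1.10 to 1.43 CPM. Without library 1, 18 genes were called between tissues in GFP-positive cells, all of them among the 22, and 8 in the cortical gate, 7 of them among the 11.

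**Figure D5:**
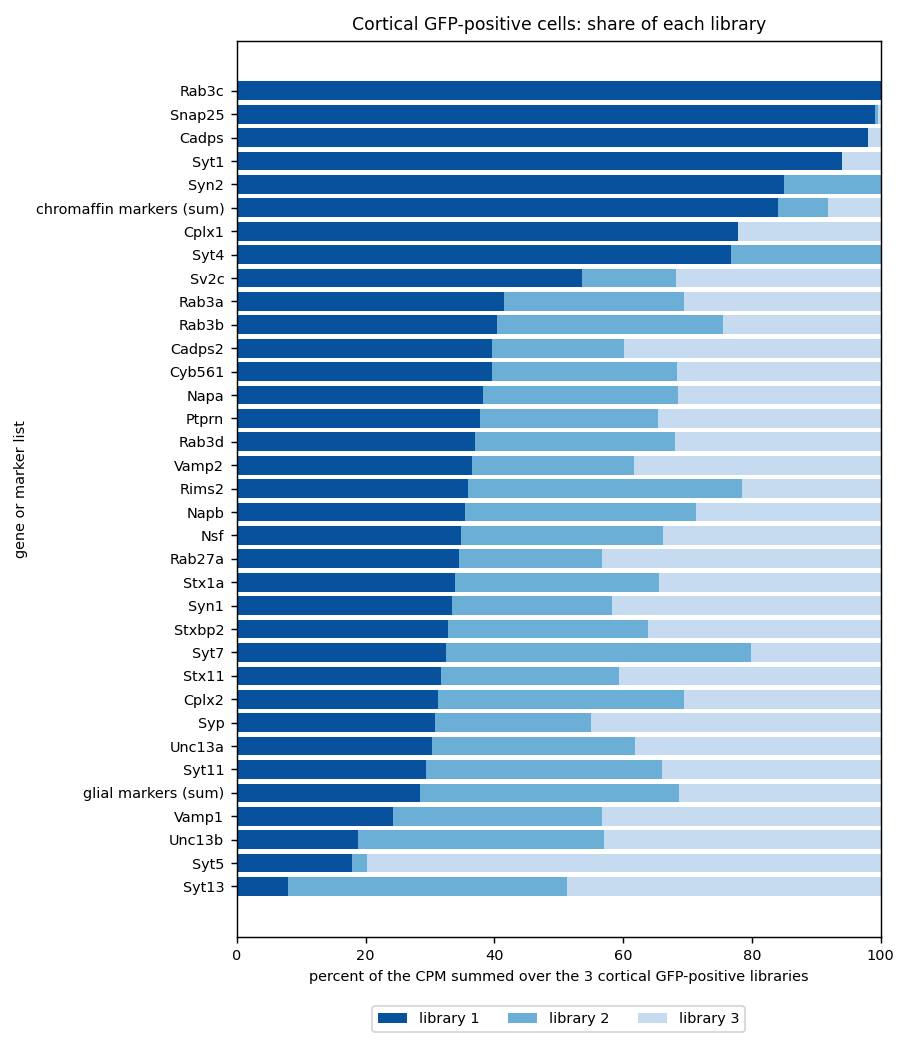
Share of each GFP-positive cortical library (shades of blue, percent of the CPM summed over the 3) for the genes with counts there and for the summed chromaffin and glial markers. Rab3c, Snap25, Cadps, Syt1 and Syn2 lie with the chromaffin markers at the top, filled mostly by library 1, and most other genes are split about evenly.

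Beyond the 40 genes, 87 of 100 other exocytosis genes were tested. In the medulla 10 were higher and 12 lower in GFP-positive cells, which is 25.3% against 21.4% of all genes tested, and in the cortex 7 were higher and 6 lower, which is 14.9% against 14.7%. Between tissues 13 were higher and 2 lower in the GFP-positive medulla than in the GFP-positive cortex, which is 17.2% against 15.5%. Among GFP-negative cells 21 were higher and 7 lower, which is 32.2% against 18.6%. The first 3 of these shares were near those of all genes. Their median log2 difference between tissues was 0.27 in GFP-positive and 0.31 in GFP-negative cells. The gate difference differed between tissues for 1 of them, Sytl4 (granuphilin, which docks insulin granules), by a log2 value of 2.95 (SE 0.608, adjusted p = 0.0438). That is 1.15% against 1.61% of all genes tested, so this count is no result about these genes.

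Among these genes the largest gate differences were shared in direction by the tissues for 3. Sytl5, a Rab27 effector, was at 0.0507 ± 0.0440 CPM in GFP-negative and 18.8 ± 8.02 CPM in GFP-positive cortical cells (SD, n = 3 each), and at 0.731 ± 0.517 CPM (SD, n = 2) and 27.9 ± 7.84 CPM (SD, n = 3) in medullary cells. Stxbp5l, a tomosyn that holds back SNARE assembly, was at 0.344 ± 0.529 CPM and 15.8 ± 2.99 CPM in the cortex (SD, n = 3 each), and at 0.796 ± 0.321 CPM (SD, n = 2) and 15.8 ± 5.73 CPM (SD, n = 3) in the medulla. Rab3il1, an exchange factor for Rab3, went the other way, from 44.6 ± 17.2 CPM to 1.66 ± 0.546 CPM in the cortex (SD, n = 3 each) and from 142 ± 34.0 CPM (SD, n = 2) to 5.26 ± 0.566 CPM (SD, n = 3) in the medulla. All 6 of these differences passed the test, with adjusted p between 4.05e-05 for Rab3il1 in the medulla and 0.0136 for Stxbp5l in the medulla.

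In the medulla Unc13d, the Munc13 protein of blood cells, was lower in GFP-positive cells (log2 difference -3.07, SE 0.738, adjusted p = 0.0145), and Anxa2, a calcium-dependent membrane-binding protein, was higher (log2 difference 2.13, SE 0.186, adjusted p = 7.61e-05). In the cortex Pclo, a scaffold of the active zone, was higher in GFP-positive cells (log2 difference 5.05, SE 1.08, adjusted p = 0.0119), as was Synpr, a relative of synaptophysin. The Synpr ratio was 97.0 (exact 95% counting interval 32.8 to 474, against 3 counts), and its groups overlapped, since 1 GFP-positive library was at 0.0430 CPM.

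The authors' deposited table of gate differences in the cortex gives 4 of the 40 genes an adjusted p under 0.05, Syt7 and Rims2 lower and Stx11 and Ptprn higher, and 3.64% of all genes in that table. In the authors' deposited table for the medulla there are 5, Syt11, Stx11 and Sv2c higher and Stxbp2 and Rims2 lower, against 6.13% of all genes. The authors' deposited table of cortex against medulla in GFP-positive cells gives 16, all lower in the cortex, against 4.09%. All of these genes were also called here in the same direction. In these tables the test statistic equals the log2 fold change beyond 1 divided by its standard error for 100% of the genes whose fold change exceeds that size, so their p-values ask for more than a 2-fold change, while those given above ask for any change.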

How the data were processed

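RNA of sorted adrenal cells was sequenced in 11 libraries. The authors deposited whole-number read counts per gene, and per the submitters' processing notes bcl2fastq 2.19.1, GSNAP, featureCounts 1.6.0 and DESeq2 1.18.1 were used with the mm10 genome; roles and settings are not given in the sources used here. Per the file headers, the deposited comparison tables give log2 fold changes with standard errors, a test statistic (score) and adjusted p-values. The labels gave each library its tissue and gate.

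Rows of 92 spike-in sequences, with 10 counts in all, were left out. The 4 groups were fitted together with edgeR 4.0.16 in R 4.3.3 (quasi-likelihood test, filterByExpr, TMM scaling, Benjamini-Hochberg adjustment over 20893 genes, 7 residual degrees of freedom). The fit was also run on simulated counts, which varied less than these data, so that run does not bear on the calls above. A standard error is the log2 difference divided by the square root of F. Where a group had no counts, folds are bounds against 3 counts over the group, and with 1 to 3 counts a ratio with an exact 95% interval is given. Levels between genes are compared per kilobase of the deposited gene length. No 2 libraries looked like repeats of each other.

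All members are reported; values in every library are given for members called in a gate comparison or between gate effects and for the leading member of each role, others by means, ranges or selected values. Syt1, Syt4, Cplx1 and Cadps were given in more detail after their values were seen. Of 100 other exocytosis genes, only those called in a gate with a log2 difference of 2 or more are named, at most 8 per comparison, and Sytl4 as the only one called in the test between gate effects. Some genes that these rules would name are not reported here. Markers of chromaffin, glial, steroidogenic, macrophage, endothelial, pericyte, fibroblast, ganglion neuron, and platelet or mast cells were followed as 9 lists. The members, lists and motifs were chosen with earlier results of these data known. Alternatives were other scalings, no filter, DESeq2 1.42.0, limma 3.58.1, 2-group fits, age as a covariate, a replicate block and leaving out each library.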

Additional observations from a re-analysis of the deposited data

Results flagged for a closer look

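The effect of the gate differed between medulla and cortex for 2 of the 39 tested genes, by a test of the difference itself (edgeR quasi-likelihood test with Benjamini-Hochberg adjustment). For Stx11 the medullary gate difference exceeded the cortical one by a log2 value of 6.14 (SE 0.635, adjusted p = 0.00776), with 3 counts in the 2 GFP-negative medullary libraries together and levels of 17.6 to 25.1 CPM in the 3 GFP-positive ones. For Syn1 the difference was a log2 value of 2.12 (SE 0.443, adjusted p = 0.0467), with a lower level on the GFP-positive side in the cortex and no call in the medulla. Both GFP-negative medullary libraries came from the older mice. Within the 3.5-month libraries Stx11 was at 22.0 CPM in the GFP-positive medullary library and at a mean of 0.0568 CPM in the 2 GFP-negative ones. With age as a covariate the call of Stx11 was kept and that of Syn1 had an adjusted p of 0.0791 (edgeR quasi-likelihood test).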

How the results depend on the processing

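Over 1172 values of single genes recomputed under the alternatives, no called difference changed sign, 1061 kept direction and side of the threshold and 111 lost the call; the cause was not tested. In the medullary gate DESeq2 called 13 genes and limma voom 15, against 8. For the difference between gate effects DESeq2 called 7, and limma voom, age as a covariate and the replicate block 1 each, against 2. Shares of all genes called under the alternatives are not given here, so such counts are no result about the 40 genes. Leaving out 1 library in turn gave 7 to 10 genes in the medullary gate, 8 to 13 in the cortical gate, 17 to 22 between tissues in GFP-positive cells, 13 to 21 in GFP-negative cells and 1 to 2 for the difference between gate effects. The call of Stx11 for that difference was kept in 18 of 18 alternatives and that of Syn1 in 3 of 18. A fit of only the 2 groups compared could not be made for it.

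Library numbers do not pair all the samples, since those numbered 2 came from mice of both ages. Deviations of same-numbered libraries correlated at -0.0085 to 0.0782 over 15 pairs, against -0.0782 to 0.0278 over 30 others. Between the cortical gates, same-numbered pairs were at 0.0587, 0.0711 and 0.0337, and the others at -0.0540 to -0.0049. Whether same-numbered libraries share animals was not tested. With the replicate block 9, 10, 21 and 19 genes were called in the medullary gate, the cortical gate and the tissues among GFP-positive and GFP-negative cells, against 8, 11, 22 and 19.

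Scaling by total counts alone moved the median of all genes by -0.10 (log2) in the cortical gate and by 0.17 for the difference between gate effects. There the calls over all genes were 1244 higher and 2032 lower in the cortical gate, against 1492 and 1586, and 2043 higher and 2280 lower between tissues in GFP-negative cells, against 2209 and 1683; over the difference between gate effects they were 270 and 122, against 158 and 179. The 40 genes kept 5 higher and 6 lower in the cortical gate. Leaving an arm with 1 library, as in the GFP-negative medulla, assumes that it varies like the other groups. Genes near 3 counts, such as Sv2a, Rab3b and Sv2c in the cortex, are limited by depth.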
